A study of Mus musculus with 6 samples.

Results

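Interferon-stimulated genes were examined in subcutaneous white fat (labelled IWAT) of mice that lack the transcription factor YY1 in cells with Ucp1-driven Cre. The set was a list of 37 genes, each represented by the probe set with the highest mean over all arrays. Of these, 33 were measured by a probe set annotated to that gene alone, out of 12394 genes in all. The only probe set found for Isg15 is annotated to a second gene as well, and Isg15, Ddx58, Ifi44 and Xaf1 were not analysed here. The members were taken in 2 classes, with 18 measured genes known mainly as targets of type I interferon and 15 known mainly as targets of interferon-gamma. Many of them respond to both, so the classes overlap in their biology.

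The tested mice (YY1bKO, 3 arrays) were YY1flox/flox; Ucp1Cre, and the control mice (3 arrays) were YY1flox/flox without Cre. All 6 came from mice aged 8 weeks on a mixed C57BL6 and 129 background, and all had 2 weeks of high fat diet. Ucp1 regulatory sequences act mainly in brown and beige adipocytes, and no mice carrying Cre alone are labelled, so the Cre transgene and YY1 loss cannot be told apart. The labels do not say whether each array is its own animal, and p-values therefore measure only the spread between these samples, which may be technical. Values are log2(intensity + 1) levels, and a difference is the YY1bKO mean minus the control mean on that scale, which understates changes of dim genes. P-values come from limma, adjusted over all 12394 genes after Benjamini and Hochberg, and an adjusted p under 0.05 counts as passed.

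Type I interferons (interferon-alpha and -beta) signal through a receptor whose kinases activate STAT2, which acts with IRF9 at the interferon-stimulated response element (ISRE). Interferon-gamma acts through a separate receptor and the gamma-activated site (GAS), and it induces the transcription factor IRF1. The first route is known for antiviral effectors such as the IFIT, OAS and MX proteins. The second is known for antigen processing, guanylate-binding proteins and chemokines that attract T cells. In fat these genes are used by adipocytes as well as by resident macrophages and lymphocytes, and subcutaneous fat can hold lymph nodes.

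The promoter windows that show the 2 kinds of element are given first, because the textbook account of the classes rests on these elements. RefSeq promoters (250 bases before to 50 after an annotated start, build GRCm38.p6) were found for 27 of the 33 measured members. The ISRE core was searched on both strands as GAAA, any 2 bases and GAAA (TTTC, any 2 bases and TTTC from the other strand), and the GAS core as TTCNNNGAA, which reads the same from both. In the lines below the matches are in capitals and each sequence runs 5′ to 3′ on the strand of its gene.
Ifit1: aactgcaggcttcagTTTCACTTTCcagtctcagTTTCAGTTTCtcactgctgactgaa
Ifit3: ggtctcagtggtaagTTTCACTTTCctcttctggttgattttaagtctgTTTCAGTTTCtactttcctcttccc
Bst2: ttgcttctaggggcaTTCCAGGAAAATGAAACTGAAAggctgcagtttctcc
Isg20: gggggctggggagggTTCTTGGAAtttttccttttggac
Gbp3: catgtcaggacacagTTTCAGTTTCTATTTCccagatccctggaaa
Gbp2: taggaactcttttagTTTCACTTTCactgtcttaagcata
Igtp: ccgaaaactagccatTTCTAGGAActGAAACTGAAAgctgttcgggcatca
Irf1: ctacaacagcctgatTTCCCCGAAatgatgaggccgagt
Irf8: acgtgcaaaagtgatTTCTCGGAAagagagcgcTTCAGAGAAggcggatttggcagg
Psmb8: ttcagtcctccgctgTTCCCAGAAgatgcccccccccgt

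All 10 windows lie upstream of the annotated start. The Ifit1 and Ifit3 windows are at chr19:34640770-34640828 and chr19:34583358-34583431 on the plus strand, and each holds a pair of ISRE cores. Bst2 (chr8:71537572-71537623, minus strand) has a GAS core that runs into overlapping ISRE cores, while Isg20 (chr7:78913336-78913374, plus strand) has a GAS core alone. The Gbp3 window is at chr3:142559984-142560029 and the Gbp2 window at chr3:142620589-142620628, both on the plus strand with ISRE cores. On the plus strand of chromosome 11, Igtp (chr11:58199496-58199546) has a core of each kind and Irf1 (chr11:53769909-53769947) a GAS core. The Irf8 window (chr8:120736172-120736228, plus strand) holds 2 GAS cores and the Psmb8 window (chr17:34198083-34198121, plus strand) holds 1.

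An ISRE core was present in the promoters of 7 of 14 type I targets and of 5 of 13 interferon-gamma targets. Counted over promoters, since some genes have several, 35.3% of the members' 34 promoters held it, against 3.44% of the 32851 promoters in the table. A GAS core was found in 5 of the 14 and 4 of the 13 genes, which came to 26.5% of the members' promoters, against 8.3% of the 32851. In Bst2, Gbp3, Oas1a and Irgm1 neighbouring ISRE cores overlap each other. A match describes letters in this window and not a bound site.

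Yy1 itself had log2 levels of 10.13, 10.41 and 10.20 in YY1bKO replicates 1, 2 and 3, against 10.33, 10.52 and 10.62 in the control replicates, a difference of -0.24 ± 0.12 (SE, n = 3 each; limma adjusted p = 0.574). Its 4 probe sets gave -0.24 to -0.07, and no source says whether any of them reads the floxed exon. Deletion would in any case be limited to cells with Ucp1-driven Cre. Ucp1 was at 10.65, 11.01 and 10.91 in YY1bKO fat, against 5.71, 5.67 and 5.43 in control fat. Adipoq, the adipocyte hormone adiponectin, lay between 14.15 and 14.29 in YY1bKO arrays and between 13.96 and 14.24 in control arrays, so this adipocyte gene was high on every array. Array medians ranged from 123.15 to 130.35 intensity units, and lower quartiles from 4.95 to 5.03 on the log2 scale. Some arrays differed in other tissue. Krt14, a keratin of basal epithelium, was at 12.45 in control replicate 2, against 4.68 to 5.25 in the other arrays. Myh4, a fast muscle myosin, was at 8.83 in YY1bKO replicate 1, against 3.38 to 4.27 elsewhere. The B cell gene Ms4a1 was at 4.89 in YY1bKO replicate 1 and 5.4 in control replicate 1, and at 9.06 to 11.76 in the other arrays. In whole fat, fewer cells of a type and less RNA per cell cannot be told apart.

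None of the 33 measured interferon-stimulated genes passed the threshold in YY1bKO fat (0 members by limma, where 0.0323% of all genes passed). At an unadjusted p under 0.05, 3 members were higher (Isg20, Irf7 and Bst2, all type I targets) and 0 were lower, where 8.45% of all genes were higher and 1.99% lower. The direction was mostly upward, with 29 of 33 members above 0, where 51% of all genes were. The median difference was 0.34 over the type I targets, 0.09 over the interferon-gamma targets and 0.00 over all genes. Arrays of the 2 groups did not overlap in 5 members (Isg20, Irf7, Bst2, Ifi35 and Gbp3), all higher in YY1bKO. Of all genes, 11.5% stood apart upward and 5% downward. A difference of 0.3 or more was seen in 16 members and one of 0.5 or more in 8, where 11.6% and 4.1% of all genes reached these sizes.

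**Figure D1:**
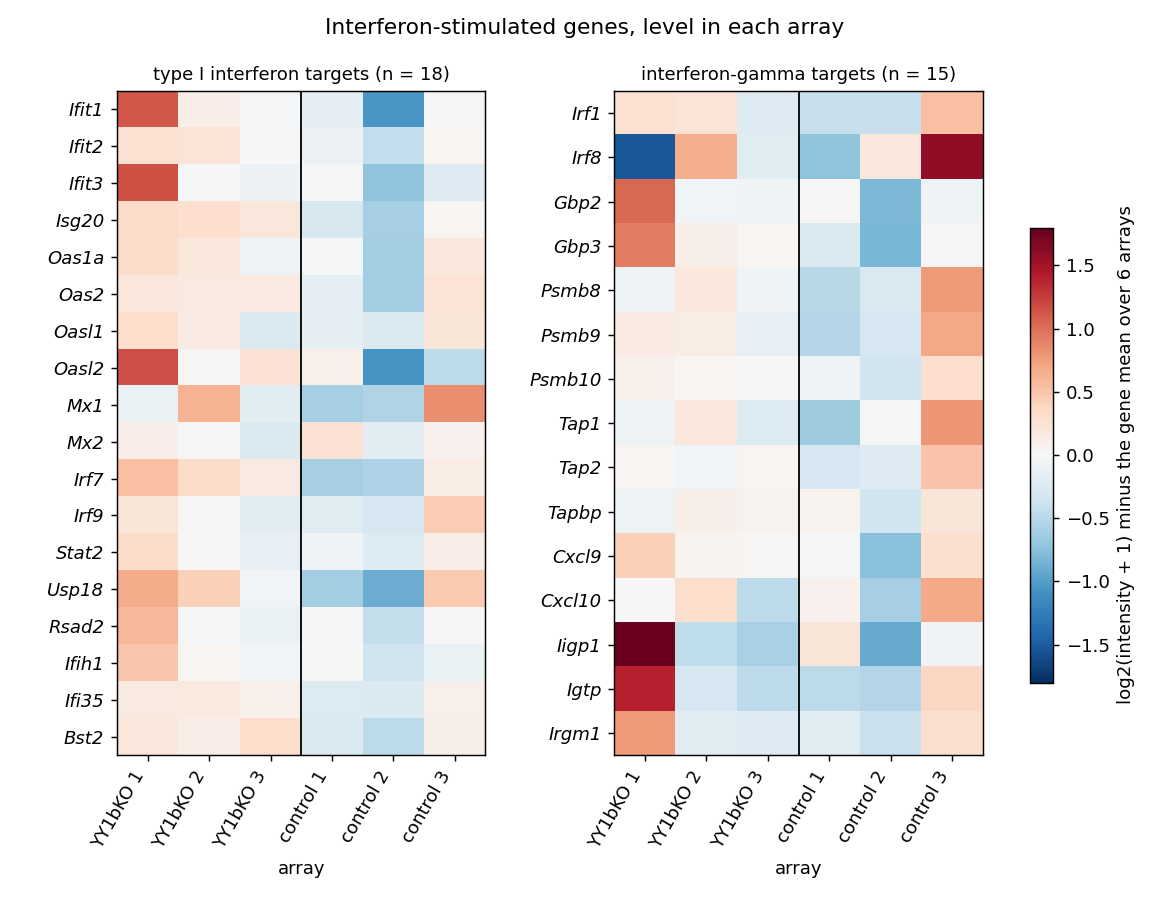
Level of each member in each array as log2(intensity + 1) minus the gene's mean over the 6 arrays (colour scale in log2 units), with the YY1bKO arrays left of the line and the control arrays right of it. YY1bKO replicate 1 is the highest array in 18 of 33 members and control replicate 2 the lowest in 25.

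**Figure D2:**
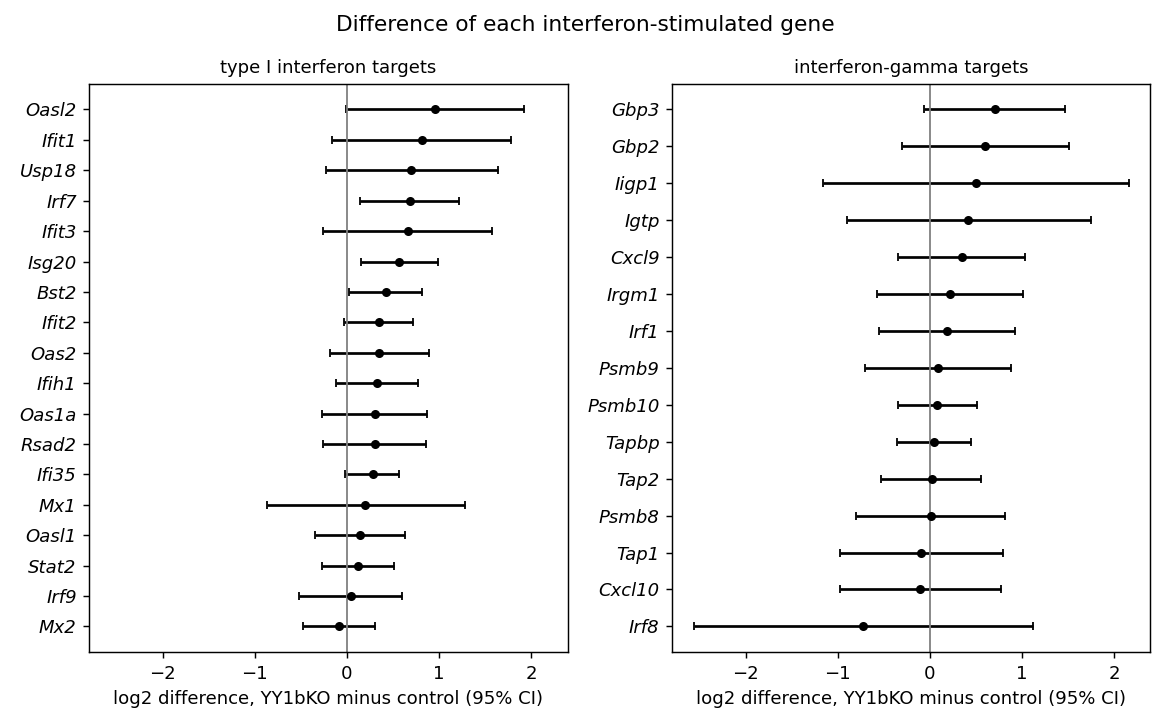
Log2 difference of each member, YY1bKO minus control, with its 95% confidence interval from limma (n = 3 each), type I targets left and interferon-gamma targets right. The intervals of Irf7, Isg20 and Bst2 lie above 0 and all others span it.

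The transcription factors of the type I route had unequal differences, though none passed. Irf7, the factor that amplifies type I interferon production, had levels of 8.63, 8.42 and 8.25 in YY1bKO replicates 1, 2 and 3, against 7.50, 7.54 and 8.22 in the controls. Every YY1bKO array lay above every control array, though YY1bKO replicate 3 and control replicate 3 were close. Its difference of 0.68 ± 0.22 (SE, n = 3 each; 95% confidence interval 0.14 to 1.22) corresponds to 1.6-fold and did not pass (limma adjusted p = 0.38). Irf9, the DNA-binding subunit of the complex that binds the ISRE, was at 8.17, 7.98 and 7.77 in YY1bKO, against 7.74, 7.65 and 8.41 in controls. Stat2, its partner, was at 7.14, 6.82 and 6.67, against 6.75, 6.57 and 6.93. In both genes the groups overlapped, with differences of 0.04 ± 0.23 and 0.12 ± 0.16 (SE; limma adjusted p = 0.966 and 0.84). Their intervals, -0.52 to 0.60 for Irf9 and -0.27 to 0.51 for Stat2, stay below 1, which would be a doubling.

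Among the antiviral effectors, Isg20, an exonuclease that degrades RNA, had the smallest p of all members. Its levels were 8.14, 8.10 and 7.99 in YY1bKO, against 7.50, 7.19 and 7.83 in controls, with no overlap. The difference was 0.57 ± 0.17 (SE, n = 3 each; 1.48-fold), with an unadjusted p of 0.0154 and a limma adjusted p of 0.339. The YY1bKO arrays lay within 0.15 of each other while the controls spread over more than 4 times that range. Oasl2, an oligoadenylate synthetase-like protein, had the largest difference of the members, 0.96 ± 0.40 (1.94-fold; limma adjusted p = 0.482). It was at 8.08, 6.93 and 7.17 in YY1bKO, against 7.0, 5.86 and 6.45 in controls, so the groups overlapped through control replicate 1. The other synthetases, Oas1a and Oas2, which make the oligoadenylates that activate RNase L, had differences of 0.30 and 0.35, and Oasl1, in mice an inhibitor of Irf7 translation, of 0.14.

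The Ifit genes, whose products bind foreign RNA or block its translation, showed how much 1 array weighed. Ifit1 was at 8.11, 7.11 and 6.97 in YY1bKO, against 6.83, 5.94 and 6.97 in controls. Ifit3 was at 9.48, 8.30 and 8.23, against 8.31, 7.61 and 8.11. In both, YY1bKO replicates 2 and 3 lay close to control replicates 1 and 3, and the gap came from YY1bKO replicate 1 at the top and control replicate 2 at the bottom. The differences were 0.81 ± 0.40 for Ifit1 and 0.66 ± 0.38 for Ifit3 (SE, n = 3 each; limma adjusted p = 0.563 and 0.624), and 0.46 and 0.25 without YY1bKO replicate 1. Ifit2 gave 0.35 ± 0.15 with a narrower range, 8.51, 8.47 and 8.23 in YY1bKO, against 8.12, 7.79 and 8.26 in controls.

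Usp18, the protease that removes ISG15 from proteins and damps the type I receptor, was at 8.52, 8.28 and 7.80 in YY1bKO, against 7.22, 6.96 and 8.32 in controls. Control replicate 3 exceeded 2 of the 3 YY1bKO arrays, and the difference of 0.70 ± 0.38 (SE; limma adjusted p = 0.606) became 1.11 without it. Bst2, tetherin, which holds budding virus at the cell surface, was at 8.37, 8.28 and 8.48, against 7.91, 7.69 and 8.27. The groups stood apart narrowly, with a difference of 0.42 ± 0.16 (SE, n = 3 each; 1.33-fold, limma adjusted p = 0.458). Ifi35 was likewise just apart, at 9.13, 9.15 and 9.06 in YY1bKO, against 8.73, 8.71 and 9.06 in controls (difference 0.28 ± 0.12, limma adjusted p = 0.505).

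The remaining type I targets had differences of 0.33 or less. Rsad2, viperin, which makes a chain-terminating nucleotide, had 0.30 ± 0.23, and its 3 probe sets gave 0.30 to 0.39. Ifih1, the sensor of double-stranded RNA known as MDA5, had 0.33 ± 0.18. Mx1 and Mx2, dynamin-like GTPases that are non-functional in most laboratory mouse strains, had 0.20 ± 0.44 and -0.09 ± 0.16. Mx2 was the only type I target of the 18 with a difference below 0. Mx1 ranged from 5.69 to 6.51 in YY1bKO and from 5.29 to 6.73 in controls, with its highest value in control replicate 3.

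**Figure D3:**
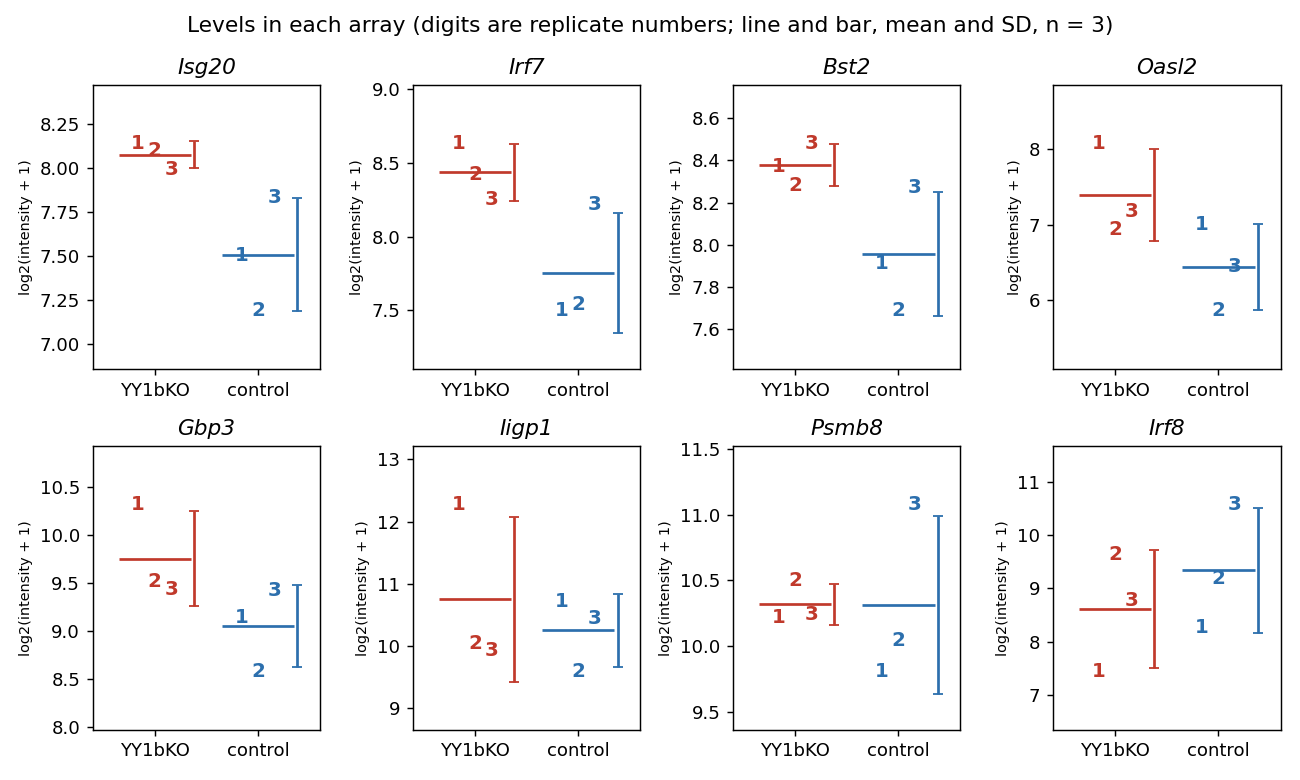
Levels of 8 members in each array as log2(intensity + 1); each digit is the replicate number of an array, the line is the group mean and the bar its SD (n = 3). Isg20, Irf7, Bst2 and Gbp3 show no overlap between groups, Iigp1 shows YY1bKO replicate 1 apart from the other 5 arrays, and Psmb8 and Irf8 are highest in control replicate 3.

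Among the interferon-gamma targets the guanylate-binding proteins and immunity-related GTPases, which act on vacuoles of intracellular pathogens, were far higher in a single YY1bKO array. Iigp1 was at 12.28 in YY1bKO replicate 1 and at 10.04 and 9.92 in the other YY1bKO arrays, against 10.71, 9.59 and 10.44 in controls. Igtp was at 10.77, 9.07 and 8.90, against 8.90, 8.84 and 9.74. Apart from replicate 1, the YY1bKO arrays lay within the control range in both. The differences were 0.50 ± 0.68 for Iigp1 and 0.42 ± 0.54 for Igtp (SE, n = 3 each; limma adjusted p = 0.845 and 0.836), and they turned to -0.27 and -0.17 without YY1bKO replicate 1. Irgm1, of the same family, gave 0.22 ± 0.33 and -0.11 without that array.

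Gbp3 was the only interferon-gamma target whose groups did not overlap, at 10.32, 9.51 and 9.43 in YY1bKO, against 9.14, 8.58 and 9.42 in controls. Its difference was 0.71 ± 0.31 (SE; 1.63-fold, limma adjusted p = 0.515), and YY1bKO replicate 3 exceeded control replicate 3 by about 0.01. Gbp2 was at 11.55, 10.46 and 10.43, against 10.51, 9.70 and 10.43, a difference of 0.60 ± 0.37 (limma adjusted p = 0.647). The probe set used for Gbp2 may cross-hybridise, as its suffix marks, and the second Gbp2 probe set gave 0.56. Averaged over Gbp2, Gbp3, Iigp1, Igtp and Irgm1, deviations from the gene mean were 1.18, -0.18 and -0.27 in the YY1bKO arrays, against -0.15, -0.70 and 0.11 in the control arrays. This grouping was made after the values were seen.

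The antigen-processing genes had differences near 0, with wide intervals. Psmb8, Psmb9 and Psmb10, the catalytic subunits of the immunoproteasome, had differences of 0.01 ± 0.33, 0.09 ± 0.33 and 0.08 ± 0.17. Tap1 and Tap2, which form the peptide transporter of the endoplasmic reticulum, had -0.09 ± 0.36 and 0.02 ± 0.22, and Tapbp, tapasin, had 0.05 ± 0.17 (SE, n = 3 each; limma adjusted p from 0.9 to 0.994 over the 6 genes). All 6 were highest in control replicate 3. Psmb8, for example, was at 10.22, 10.50 and 10.24 in YY1bKO, against 9.81, 10.04 and 11.08 in controls. The 95% confidence interval of Psmb8 ran from -0.80 to 0.82, and that of Psmb10 from -0.34 to 0.51. Psmb5, Psmb6 and Psmb7, the constitutive subunits that Psmb8, Psmb9 and Psmb10 replace, had differences of -0.13, 0.14 and 0.37 (limma adjusted p from 0.552 to 0.843). Of 7 measured MHC class I genes, which present the peptides, none had an unadjusted p under 0.05 and the median was -0.02. H2-Q10 had the smallest p of these at 0.73 ± 0.32 (limma adjusted p = 0.517), followed by B2m, the light chain, at 0.13 ± 0.10, H2-M3 at -0.27 ± 0.35 and H2-D1 at 0.07 ± 0.10. Different probe sets of H2-D1 gave both signs.

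Irf1, the factor that interferon-gamma induces first, was at 10.12, 10.10 and 9.62 in YY1bKO, against 9.44, 9.43 and 10.40 in controls, a difference of 0.19 ± 0.30 (SE; limma adjusted p = 0.868). Irf8, a factor of B cells, dendritic cells and monocytes, was at 7.45, 9.64 and 8.77, against 8.26, 9.18 and 10.58. It spread widely in both groups, and its difference of -0.72 ± 0.75 (limma adjusted p = 0.794) was the lowest of the 33 members. The chemokine Cxcl9, which draws T cells through Cxcr3, was at 10.13, 9.77 and 9.73, against 9.67, 8.95 and 9.99. It gave 0.35 ± 0.28 (limma adjusted p = 0.729), while Cxcl10, a ligand of the same receptor, gave -0.11 ± 0.36.

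Array by array, the classes differed mainly in control replicate 3. The mean deviation of the 18 type I targets was 0.45, 0.16 and -0.02 in YY1bKO replicates 1, 2 and 3, against -0.18, -0.54 and 0.12 in the controls. The mean of the 15 interferon-gamma targets was 0.34, 0.07 and -0.17, against -0.25, -0.44 and 0.46. YY1bKO replicate 1 was highest for the type I class and control replicate 3 for the interferon-gamma class, and control replicate 2 was lowest for both. Subtracting the second mean from the first left 0.11, 0.09 and 0.16 in YY1bKO, against 0.08, -0.10 and -0.34 in controls, values that do not overlap. No test was made of that gap, since the members were chosen with results of these data known.

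Markers of other cells moved with these arrays. The 7 measured B cell markers had mean deviations of -2.07, 1.11 and -0.07 in YY1bKO, against -1.81, 0.83 and 2.01 in controls, and summed intensities from 276 to 3959 in YY1bKO and from 306 to 8126 in controls. Irf8 placed the 6 arrays in the same order as this mean. The 8 T cell markers followed a like pattern, at -1.59, 0.90 and 0.10, against -1.48, 0.55 and 1.52. Control replicate 3, the highest of both, was also the highest in 12 of 33 members, among them the 6 antigen-processing genes, where 23.2% of all genes were highest. The mean of the 8 skeletal muscle markers stood at 2.70 in YY1bKO replicate 1, against -0.67 to -0.20 in the other arrays. Of these markers 7 were highest in that array. The exception, Acta1, was at 10.62, 9.04 and 10.62 in YY1bKO, against 8.29, 7.51 and 8.22 in controls. Its groups stood apart upward, as did those of 11.5% of all genes (5% downward). YY1bKO replicate 1 was highest in 18 of 33 members, where 17.1% of all genes were. The mean of the 9 skin and mammary markers stood at 3.01 in control replicate 2, against -0.81 to -0.05 elsewhere. Of these markers 7 were highest in that array, while Csn3 and Wap were not, at 3.86 and 4.90 there. Control replicate 2 was lowest in 25 of 33 members, where 27.9% of all genes were. The 7 endothelial markers were all higher, with a median difference of 0.37 and their lowest value in control replicate 2, and stood at 0.16, 0.04 and 0.34, against 0.21, -0.52 and -0.23. Of the 6 adipocyte markers 5 were higher, with a median of 0.28, and 5 were lowest in control replicate 2. The differences of the adipocyte markers ran from -0.31 for Lep to 1.00 for Pnpla2, and those of the endothelial markers from 0.23 to 0.62. The mean of 9 macrophage markers spanned -0.06 to 0.13 in YY1bKO arrays and -0.43 to 0.21 in control arrays. Of these markers 5 were higher and 4 lower. Cd163 at 0.67 ± 0.18 and Mertk at 0.56 ± 0.18 were higher without overlap (limma adjusted p = 0.295 and 0.377). Of 6 conventional dendritic cell markers 5 were lower. Itgax stood apart downward at -0.73 ± 0.24 and Zbtb46 upward at 0.32 ± 0.20 (limma adjusted p = 0.378 and 0.647). NK, plasmacytoid dendritic and neutrophil lists had medians of -0.12, -0.13 and -0.13. No marker was at 0 on any array. Beyond the fits given next, the part of these cells in the results was not tested.

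**Figure D4:**
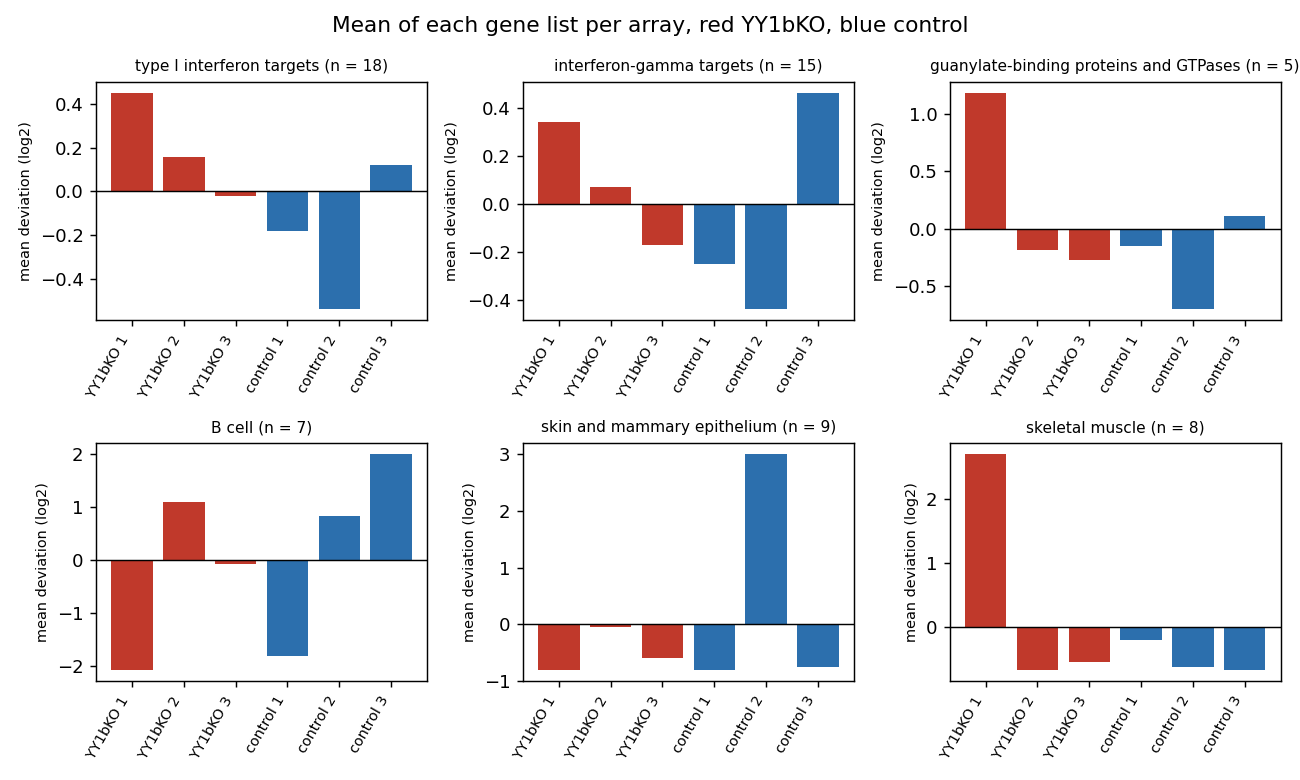
Mean deviation from the gene mean in each array (log2 units, each panel with its own vertical scale) for the type I targets, the interferon-gamma targets, the 5 guanylate-binding proteins and GTPases, and markers of B cells, epithelium and skeletal muscle; red bars are YY1bKO arrays and blue bars control arrays. The muscle markers and the GTPases peak in YY1bKO replicate 1, the epithelial markers in control replicate 2 and the B cell markers in control replicate 3.

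YY1bKO replicate 1 and control replicate 2 held much of the difference. Leaving out YY1bKO replicate 1 alone put 24 of 33 members above 0, with medians of 0.28 (type I) and 0.04 (interferon-gamma), and leaving out control replicate 2 alone put 22 above 0, with medians of 0.22 and -0.04. A fit without either array was added after seeing the data. They were picked as the arrays most often highest and lowest, so the choice itself makes the difference smaller. In that fit 13 of 33 members were above 0, and the medians were 0.10 for type I and -0.10 for interferon-gamma targets, against -0.01 for all genes. Type I targets were then higher in 12 of 18 and interferon-gamma targets in 1 of 15. No member passed, and Iigp1, at -0.59, was the only one at an unadjusted p under 0.05, where 3.71% of all genes were higher and 1.74% lower. Isg20, Irf7 and Bst2 stayed between 0.41 and 0.73, 0.55 and 0.91, and 0.28 and 0.57 when any 1 array was left out. Without control replicate 3 the medians were 0.52 and 0.42, and 12 members had an unadjusted p under 0.05, all higher, where 7.29% of all genes were. With the mean of the B cell markers as a covariate, also chosen after seeing the data, the medians were 0.36 and 0.17 and 5 members had an unadjusted p under 0.05 (Isg20, Oasl2, Irf7, Ifi35 and Bst2; all higher, as were 9.41% of all genes), with none past the adjusted threshold.

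**Figure D5:**
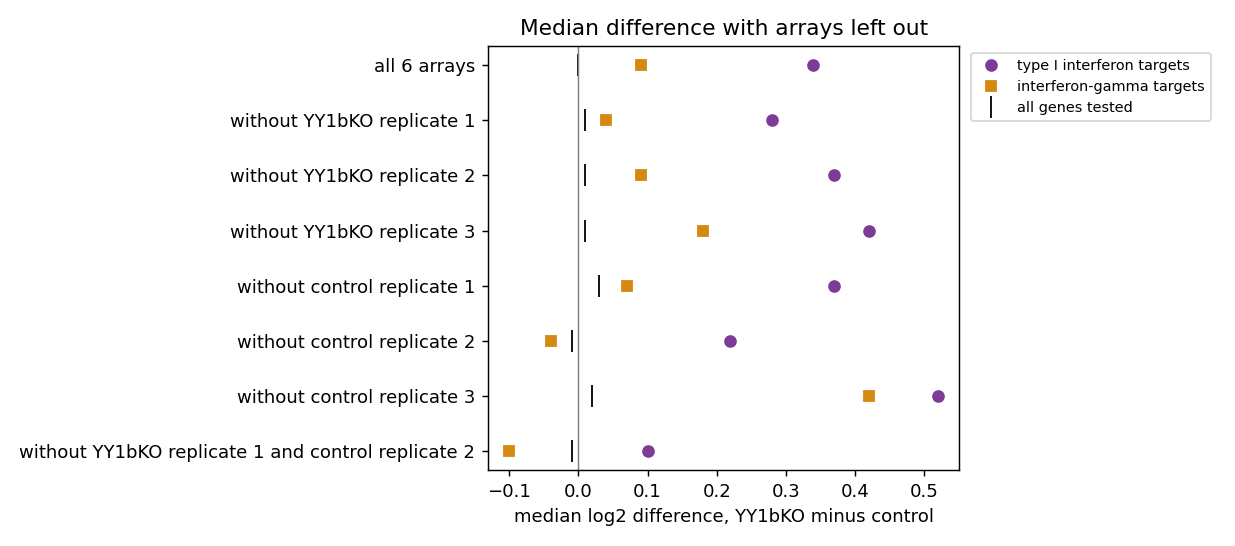
Median log2 difference, YY1bKO minus control, of the type I targets (circles), the interferon-gamma targets (squares) and all genes tested (bars), with all arrays and with arrays left out. The type I median runs from 0.10 to 0.52 and the interferon-gamma median from -0.10 to 0.42, while the median of all genes stays between -0.01 and 0.03.

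The rest of the pathway gave no called gene either. Of 10 measured interferon genes, 0 passed by limma. At an unadjusted p under 0.05, 1 was higher and 1 lower, where 8.45% and 1.99% of all genes were. Ifnb1, interferon-beta, was at 4.85, 4.89 and 5.15 in YY1bKO, against 4.71, 4.65 and 4.68 in controls (0.28 ± 0.11, limma adjusted p = 0.453). Ifna2 and Ifna9, both of the interferon-alpha family, gave -0.22 ± 0.09 and 0.25 ± 0.11 (limma adjusted p = 0.453 and 0.492). The groups did not overlap in these 3 genes, where 11.5% of all genes stood apart upward and 5% downward. Ifna2 lay at 4.86 to 5.02 in YY1bKO and at 5.15 to 5.21 in controls. Ifna9 lay at 5.21 to 5.45 in YY1bKO and at 5.01 to 5.20 in controls. Both were near the lower quartiles of the arrays, 4.95 to 5.03. Ifng, interferon-gamma itself, was added after its values were seen and lay between 3.41 and 3.75 on all arrays. The levels of Ifng and, apart from YY1bKO replicate 3, of Ifnb1 lay below the lower quartile of the arrays. Of 8 receptors and kinases, 3 were above 0 and none had an unadjusted p under 0.05, with a median of -0.01. The smallest p were those of Ifngr1, the ligand-binding chain of the interferon-gamma receptor, at 0.48 ± 0.22, and Ifngr2, its second chain, at -0.26 ± 0.17 (limma adjusted p = 0.521 and 0.667).

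Of 14 sensors and adaptors, 7 were above 0 with a median of -0.02. Only 1 had an unadjusted p under 0.05 and was higher, as were 8.45% of all genes. This was Dhx58, the RNA sensor LGP2 and itself interferon-induced, at 7.0, 6.92 and 6.71 in YY1bKO, against 6.30, 5.89 and 6.64 in controls. Its groups did not overlap, and its difference was 0.60 ± 0.20 (SE, n = 3 each; limma adjusted p = 0.402), but another of its probe sets gave 0.05. Irf5, a factor downstream of Toll-like receptors, followed at -0.42 ± 0.25 (limma adjusted p = 0.645), with 0.01 at another probe set. The 9 inhibitors of the pathway had a median of -0.02, with the smallest p in Socs3, a feedback inhibitor of cytokine receptors, at -0.45 ± 0.22 (limma adjusted p = 0.571), followed by Cish, a related inhibitor, at -0.32 ± 0.21. Among 35 further interferon-induced genes, none had an unadjusted p under 0.05. Their median was 0.16, and 25 of them were above 0, among them Lgals3bp at 0.55 ± 0.23, Ifitm3, a block to viral entry, at 0.32 ± 0.14, and Rtp4 at 0.63 ± 0.34 (limma adjusted p from 0.484 to 0.605). The other probe set of Rtp4 gave 0.25. The gene with the next smallest p, Ifi44l, was dim and lower, at -0.15 ± 0.09 (limma adjusted p = 0.637), with levels of 3.54 to 3.67 in YY1bKO and 3.69 to 3.77 in controls that did not overlap. Lgals3bp was the only other of the 35 without overlap, at 10.94, 10.81 and 11.03 in YY1bKO, against 10.78, 9.91 and 10.46 in controls. Over all genes, 11.5% stood apart upward and 5% downward.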

How the data were processed

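Biotinylated complementary RNA from subcutaneous fat was hybridised to Affymetrix arrays, per the labels' protocols. The authors deposited 1 intensity per probe set and array, made with RMA, per the submitters' processing notes (version not given in the sources used here). Values of 5.4 to 25730.1 mark a linear scale. RMA equalises the arrays' distributions. Of 22690 probe sets, 20393 carried 1 gene symbol in the platform's annotation, 691 several and 1606 none, and only the first were used. Values were taken as log2(value + 1), with 1 probe set per gene (highest mean), no filter on dim probe sets, and 2-sided tests were made by lmFit and eBayes of limma 3.58.1 (R 4.3.3, 6.11 total degrees of freedom). The step was tested on simulated data.

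The 6 arrays were grouped by the labels, and no pair was a duplicate (at most 212 identical values). Members, classes, marker and pathway lists were chosen with earlier results of these data known. All measured members are named, with every array for those with an unadjusted p under 0.05, those without overlap, Irf1, Irf7, Irf9, Stat2 and the 6 largest differences per class. Pathway lists are named by up to 4 members with the smallest p, in order of p, plus Ifng. Promoters are from RefSeq. The number of arrays limits the precision. Alternatives covered the pseudocount, normalization, filters, probe sets, moderation, array weights, a replicate block and arrays left out.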

Additional observations from a re-analysis of the deposited data

How the results depend on the processing

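No member passed the adjusted threshold in any of the 20 alternatives by limma, where the smallest adjusted p of a member ran from 0.218 to 0.906. Of 644 member differences under alternatives, 595 kept their direction and 49 turned it. As far as the labels say, same-numbered arrays share only a number, and whether they were paired is not known. Correlations of their deviations across genes were 0.607, 0.097 and 0.031, and not every array correlated best with its own number. These correlations cannot decide the matter. With the replicate number as a block 7 members had an unadjusted p under 0.05, all higher (8.61% of all genes). Probe sets with a plain _at suffix alone (24 members) gave 1 such member and 2 whose groups did not overlap (8.2% and 15.9% of all genes). Isg20, Irf7 and Gbp3 have no plain _at probe set and were not measured there, while Bst2 and Ifi35 kept their differences of 0.42 and 0.28. With 1 array left out at a time, 1 to 12 members were higher at an unadjusted p under 0.05, where 4.55% to 13.2% of all genes were. The 12 came without control replicate 3 (7.29% of all genes), and the 13.2% without control replicate 1 (2 members). The number that did not overlap ran from 5 to 18, where 20.5% to 36.8% of all genes did not. The 18 came without control replicate 3 (26.6% of all genes), and the 36.8% without control replicate 1 (9 members). The medians ran from 0.22 to 0.52 (type I) and from -0.04 to 0.42 (interferon-gamma). Leaving out YY1bKO replicate 1 and control replicate 2 together gave 0 members higher and 1 lower, with 8 not overlapping in 2 against 2 arrays, where 35.4% of all genes did not. The B cell covariate gave 5 higher and turned Tap1 to 0.08.

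Single differences turned as follows. Quantile normalization gave Psmb8 -0.02 and Tap2 -0.00. Array weights gave Mx1 -0.00, Irf9 -0.07, Psmb8 -0.13, Psmb9 -0.07 and Tap2 -0.05. Leaving out both arrays gave Oas1a -0.03, Oasl1 -0.09, Irf9 -0.20, Stat2 -0.10, Rsad2 -0.07, Irf1 -0.06, Gbp2 -0.02, Psmb8 -0.08, Psmb9 -0.09, Psmb10 -0.10, Tap2 -0.11, Tapbp -0.06, Cxcl9 -0.07, Iigp1 -0.59, Igtp -0.33 and Irgm1 -0.26. With 1 array left out the ranges were Mx1 -0.06 to 0.67, Mx2 -0.21 to 0.02, Irf9 -0.10 to 0.28, Stat2 -0.01 to 0.23, Psmb8 -0.24 to 0.40, Psmb9 -0.16 to 0.46, Psmb10 -0.08 to 0.25, Tap1 -0.43 to 0.29, Tap2 -0.13 to 0.28, Tapbp -0.12 to 0.17, Cxcl10 -0.43 to 0.21, Iigp1 -0.27 to 0.91, Igtp -0.17 to 0.76 and Irgm1 -0.11 to 0.42. Beyond the samples left out, the cause was not tested.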
